A study of Mus musculus with 12 samples.

Results

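The 48 genes described here encode proteins of the lysosome and the transcription factors that control it. They were taken by symbol from a table of 18467 genes, and all 48 had a row. By role they are 9 membrane proteins, 11 proteases, 13 glycosidases and sulfatases, 7 lipid enzymes and cofactors, 1 phosphatase with 1 nuclease, 3 proton pump genes and the 3 genes of the TFEB family. After a filter on low counts 12882 genes were tested, among them 47 of the 48. The exception was Ctsf (cathepsin F), which had 3 counts or fewer in 10 of 12 libraries.

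RNA was sequenced from macrophages that had been sorted out of bone marrow. The mice were Albino B6 females aged 8 weeks. The metastatic groups came from mice injected with E0771 cells, a mouse mammary tumour line, through the caudal artery, and the normal groups from healthy mice. General macrophages were sorted as CD11b+F4/80+ and niche macrophages as VCAM1+CD163+CCR3+, which gave 4 groups of 3 libraries, the replicates of a group being different mice. Both sorts are titled general macrophages, and groups were therefore assigned by the antigens of the sort. The healthy mice are not described as sham injected, and marrow was pooled over femur and tibia, so cells next to a tumour and cells far from it were sorted together.

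The lysosome is the acidic compartment in which cells break down proteins, glycans, lipids and nucleic acids. A proton pump in its membrane keeps it acidic, heavily glycosylated membrane proteins line it, and about every class of polymer has its own set of soluble hydrolases. Bone marrow macrophages depend on it to digest engulfed erythroid nuclei, aged cells and debris. TFEB, TFE3 and MITF are related transcription factors that bind the sequence CACGTG in the promoters of many lysosomal genes.

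Library totals ran from 13687957 to 30332442 counts, so 3 counts equalled 0.109 to 0.243 CPM (counts scaled to a common library total). Intervals and limits of this kind cover counting error only, since no molecular identifiers are described. Of the 5 genes of the sort antigens, the 3 of the niche sort separated the populations, and those of the general sort, Itgam and Adgre1, are given by marrow state. Vcam1 was at 47.6 to 92.5 CPM in the 6 general libraries and at 938 to 2248 CPM in the 6 niche libraries. Cd163 and Ccr3 did not overlap between the populations either. Itgam, which encodes CD11b, was at 628 to 852 CPM in general normal and 328 to 547 CPM in niche normal libraries, without overlap (adjusted p = 0.0983 by edgeR), and at 503 to 576 CPM and 330.2 to 567 CPM in metastatic marrow, which overlapped. Adgre1, which encodes F4/80, was lower in the sort selected for F4/80 than in every niche library of the same marrow state, at 103 to 145 against 343 to 589 CPM in normal and 64.0 to 118 against 144 to 262 CPM in metastatic marrow. In normal marrow Adgre1 was called higher in the niche sort (123 ± 21.1 CPM in general and 480.2 ± 126 CPM in niche libraries, SD, n = 3, adjusted p = 0.00246 by edgeR), and in metastatic marrow it did not pass (adjusted p = 0.166 by edgeR). The 11 macrophage markers, none at 0 in every library of a group, summed to 262 to 327 CPM in general normal, 204 to 305 in general metastatic, 4015 to 5115 in niche normal and 1636 to 3186 in niche metastatic libraries. Niche metastatic library 1 stood apart in its group, at 3186 CPM against 1636 and 1719. The 7 monocyte markers summed to 5132 to 5632 CPM in general libraries and 960 to 1502 in niche libraries, and the 13 neutrophil markers to 15402 to 25581 and 10975 to 13708 CPM. The 12 erythroid markers summed to 32.1 to 131 CPM in general and 764 to 1833 in niche libraries, and the 9 B and plasma cell markers to 18.7 to 63.8 and 404 to 1376 CPM. The 8 stromal and endothelial markers summed to 4.95 to 25.1 CPM in general libraries, where Lepr, Col1a2 and Cdh5 were at 0 throughout, and to 37.6 to 161 CPM in niche libraries. In general and niche libraries, eosinophil markers summed to 125 to 256 and 7.87 to 128 CPM, T and NK cell markers to 105 to 199 and 125 to 395 CPM, and megakaryocyte markers to 0.343 to 52.8 and 0.202 to 53.1 CPM. Osteoclast markers summed to 1384 to 2414 and 559 to 1160 CPM with Oscar at 0 throughout, and tumour and epithelial markers to 1.84 to 15.2 and 0.151 to 33.8 CPM. Of the osteoclast markers, Acp5 was at 0.297 to 22.3 CPM and Ctsk at 0 to 13.8 CPM over the 12 libraries. The osteoclast sum was thus carried by other genes of its list, which includes Mmp9, and is no measure of osteoclasts. The macrophage, monocyte, neutrophil, erythroid, B and plasma cell, stromal and endothelial, and osteoclast sums did not overlap between general and niche libraries, and their part in the results below was not tested. The eosinophil, T and NK cell, megakaryocyte, and tumour and epithelial sums overlapped. Mitochondrial transcripts made up 0.0846% to 0.400% of counts in general and 1.24% to 1.80% in niche libraries.

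The TFEB-family motif was looked for in the promoters of the lysosomal genes, as a description of sequence without a test. RefSeq promoter windows on GRCm38.p6, from 250 bases before to 50 bases after a transcript start, were matched for 43 of the 48 genes (52 windows). Entries were not matched for Ctsb, Ctsh, Galns, Asah1 and Npc1. CACGTG, which reads the same on both strands, was in 15 of the 52 windows (28.8%), against 7.15% of all 32851 windows and 10.2% of the 11195 windows of tested genes. The longer forms TCACGTG or CACGTGA, which contain CACGTG, were in 13 windows of the lysosomal genes (25%) against 3.77% of all windows and 6.23% of those of tested genes. A match is a stretch of letters and not a measured binding site. The following stretches run 5′ to 3′ on the strand of the gene, with CACGTG in capitals. Ctsd and Lgmn are shown because they were called between the populations and hold the motif, Atp6v1a because its levels went the other way, and Glb1 and Gaa because they stand for enzymes read at few or no counts in some libraries. Lamp1 is shown because its 4 matches lie beside levels that were alike in all groups, and Lipa because it holds none.
Ctsd, chr7:142387908-142387937, minus strand: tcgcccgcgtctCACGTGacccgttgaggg
Lgmn, chr12:102439124-102439153, minus strand: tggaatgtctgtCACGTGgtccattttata
Atp6v1a, chr16:44139373-44139402, minus strand: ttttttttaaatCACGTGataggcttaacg
Glb1, chr9:114401018-114401047, plus strand: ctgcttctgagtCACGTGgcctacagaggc
Gaa, chr11:119267811-119267840, plus strand: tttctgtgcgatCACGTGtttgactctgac
Lamp1, chr8:13159091-13159160, plus strand: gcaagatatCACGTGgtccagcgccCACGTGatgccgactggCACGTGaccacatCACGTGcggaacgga
Lipa, chr19:34527475-34527594, minus strand: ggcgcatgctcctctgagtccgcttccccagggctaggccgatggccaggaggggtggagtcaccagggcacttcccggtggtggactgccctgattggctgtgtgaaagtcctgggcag

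Levels of the genes, compared per length as CPM per kilobase of merged GENCODE exons and averaged over the 12 libraries, covered more than 3 orders of magnitude. The precursor of the saposins, Psap, which supplies the activators of sphingolipid hydrolases, had the highest level at 381 CPM per kilobase. It was followed by the aspartic protease cathepsin D (Ctsd, 237) and by Laptm5, a transmembrane protein of lysosomes of blood cells (129). Ctsb, Lamp1 and Lamp2 lay together at 93.1, 92.5 and 92.3 CPM per kilobase. At the bottom were Idua at 1.41, Smpd1 at 1.33 and Ctsf at 0.122 CPM per kilobase. The 48 genes together summed to 5176 to 6080 CPM in general normal and 5191 to 5467 CPM in general metastatic libraries. They summed to 7407 to 8762 CPM in niche normal and 5312 to 8208 CPM in niche metastatic libraries. In niche metastatic marrow the highest sum was that of library 1, and libraries 2 and 3 lay at 5592 and 5312 CPM. These sums carry the TMM factors and are not shares of counts. The factors were 0.906 to 1.07 in general and 1.07 to 1.26 in niche metastatic libraries, so the overlap of these groups depends on the scaling.

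The classes did not share one pattern across the groups. Protease sums were at 784 to 916 CPM in general normal and 881 to 1037 in general metastatic libraries, and at 2978 to 3217 in niche normal and 1604 to 2933 in niche metastatic libraries, with no overlap between the populations. Sums of the phosphatase and nuclease pair ran from 12.2 to 58.1 CPM in general and from 58.3 to 233 CPM in niche libraries, so the populations met but did not cross. The pump ran the other way, in normal marrow at 414 to 519 CPM in general and 271 to 279.7 CPM in niche libraries, and in metastatic marrow at 525 to 569.7 and 340.3 to 448 CPM. Membrane protein sums overlapped in all 4 groups, between 1581 and 2237 CPM. Sums of glycosidases and sulfatases overlapped between the populations, between 411 and 934 CPM, while general metastatic libraries, at 411 to 583 CPM, lay under the general normal ones, at 588 to 641 CPM. The lipid class and the TFEB family overlapped as well, at 930 to 2209 and 80.5 to 157 CPM. These sums are descriptions without a test, and the largest genes of a class dominate them.

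**Figure D1:**
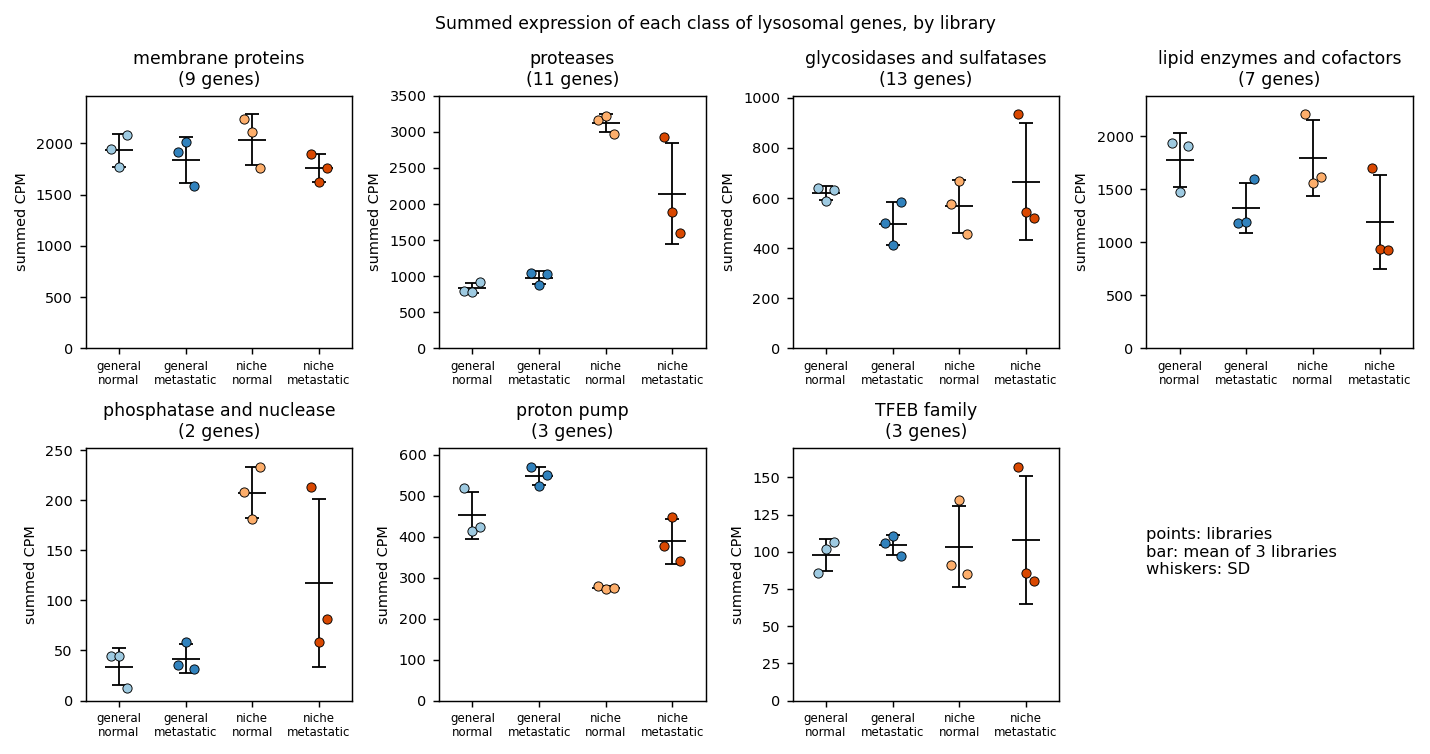
Summed CPM (y axis, linear from 0) of the genes of each class in the 12 libraries (points) of the 4 groups (x axis), with the mean and SD of 3 libraries. Protease sums lie at 1604 CPM or above in niche libraries and at 1037 CPM or below in general libraries, while membrane protein sums overlap in all groups.

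Niche macrophages from normal marrow carried more RNA of a few lysosomal genes than general macrophages did. The genes that rose were those of the proteases cathepsin B, cathepsin D and legumain, of the membrane receptor Scarb2 and of the acid phosphatase Acp2. They were 5 of 47 lysosomal genes, all higher in the niche sort, by edgeR's quasi-likelihood test at an adjusted p under 0.05, and 2.47% of all tested genes were called (1.5% as higher, 0.97% as lower). At an unadjusted p under 0.05 there were 10 of 47 (21.3%), against 19% of all genes. DESeq2 called 10 (14.2% of all genes), namely those 5 with Ctso and Lipa as higher and Atp6v1a, Gla and Idua as lower, and limma-voom called 2, Ctsb and Ctsd (1.44% of all genes). Over the 47 genes the median log2 fold change was 0.30, with 28 above 0, and over all tested genes it was 0.19. In bulk samples fewer cells of a type and less RNA per cell cannot be told apart.

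In metastatic marrow 2 of the 47 genes, Ctsb and Ctsd, were called higher in niche macrophages, and 0.831% of all genes were called (0.574% as higher). At an unadjusted p under 0.05 there were 7 (8.6% of all genes), and DESeq2 called 4 (3.73%) and limma-voom 3 (1.38%). The median log2 fold change was 0.29 over the lysosomal genes, with 32 of 47 above 0, and 0.04 over all genes. Scaled by library totals alone, those medians were 0.49 and 0.29, and 82.8% of all calls were higher in place of 69.2%. With both marrow states averaged, 6 genes were called, namely the earlier 5 and Lipa, against 4.21% of all genes (2.59% as higher). There 9 had an unadjusted p under 0.05 (18.2% of all genes), and DESeq2 called 9 (13%), which were the 6 with Ctso as higher and Atp6v1a and Lamp2 as lower. Limma-voom called 6 (3.71%), which lacked Scarb2 (adjusted p = 0.0771) and held Atp6v1a as lower. Of all averaged calls 61.4% were higher, and 74.0% with library totals alone. Lipa was no longer called there without niche metastatic library 1 (adjusted p = 0.0527). The averaged comparison uses the same libraries as the other two, and so gives no separate support.

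Ctsb encodes cathepsin B, a cysteine protease that cleaves proteins inside lysosomes and also trims peptides from their ends. The gene lies on chr14:63122462-63145923 of mm10, plus strand. Its levels were 133, 161 and 236 CPM in general normal, 214, 221 and 274 in general metastatic, 977, 1342 and 1022 in niche normal and 1017, 636 and 527 in niche metastatic libraries. Every niche library was above every general library, the closest pair being 527 and 274 CPM. The log2 fold change of niche over general was 2.65 ± 0.29 (SE) in normal marrow (adjusted p = 2.42e-05 by edgeR) and 1.62 ± 0.28 in metastatic marrow (adjusted p = 0.00441 by edgeR). Ctsb kept its call in both marrow states under every alternative run. Its neighbour Fdft1 overlaps it on the opposite strand and was at 0 to 9.59 CPM.

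Ctsd encodes cathepsin D, the main aspartic protease of the lysosome (chr7:142375911-142388038, minus strand). It read 283, 223 and 284 CPM in general normal, 271, 231 and 331 in general metastatic, 1028, 1219 and 894 in niche normal and 807, 656 and 464 in niche metastatic libraries. The populations did not overlap, and the 3 niche metastatic libraries all lay under the 3 niche normal ones. The niche over general log2 fold change was 1.99 ± 0.26 in normal marrow (adjusted p = 0.000136 by edgeR) and 1.21 ± 0.25 in metastatic marrow (adjusted p = 0.0205 by edgeR). The call in metastatic marrow was lost without general metastatic library 1 or 2 or niche metastatic library 1 or 2, with adjusted p from 0.0764 to 0.186. It was also lost when only the 6 libraries of that comparison were fitted (adjusted p = 0.0799). Gm49369, annotated on the same strand across Ctsd, could share its reads but is not among the 18467 genes counted. The promoter stretch of Ctsd printed above lies in an annotated exon.

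Lgmn encodes legumain, a cysteine protease that cuts after asparagine and also processes cathepsins into their mature forms (chr12:102394084-102439813, minus strand). Its levels were 30.5, 1.01 and 7.59 CPM in general normal, 63.6, 28.9 and 49.2 in general metastatic, 399.8, 238 and 338 in niche normal and 448, 224 and 209 in niche metastatic libraries. Populations were apart in both marrow states, and the general normal libraries ran from 1.01 to 30.5 CPM. The log2 fold change was the largest of the called genes, at 4.64 ± 0.78 in normal marrow (adjusted p = 0.00189 by edgeR). It ran from 4.10 to 6.24 there over the alternatives. In metastatic marrow it was 2.64 ± 0.71 and did not pass in edgeR (adjusted p = 0.126), while DESeq2 (adjusted p = 0.00416) and limma-voom (adjusted p = 0.0172) called it higher. Without general normal library 1 or 2, which enter that fit through the shared estimate of the spread, it did pass. The call in normal marrow was lost when only its 6 libraries were fitted (adjusted p = 0.0535) and under limma-voom (adjusted p = 0.0557).

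The remaining proteases gave no call in edgeR. Ctso, cathepsin O, was at 53.4 to 119.5 CPM in niche normal and 0.356 to 11.5 CPM in general normal libraries, which did not overlap (log2 fold change 3.86 ± 1.19, adjusted p = 0.106 by edgeR and 0.00163 by DESeq2). Ctsc, cathepsin C, which activates the granule proteases of myeloid cells, was at 152 to 197 CPM in general normal, 161 to 307 in general metastatic, 181 to 377 in niche normal and 179.96 to 277 in niche metastatic libraries. Ctsa, Ctsh, Ctsl, Ctsz and Tpp1 had group means between 7.11 and 88.5 CPM and overlapped between the populations in both marrow states. Of the 10 tested proteases, 9 had a log2 fold change above 0 in normal marrow and 8 in metastatic marrow, with medians of 0.70 and 0.81.

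Scarb2 encodes LIMP-2, the membrane receptor that carries beta-glucocerebrosidase to the lysosome (chr5:92441314-92506833, minus strand). It was at 51.0, 33.2 and 37.3 CPM in general normal, 72.5, 63.6 and 77.5 in general metastatic, 400.4, 159 and 173 in niche normal and 166, 109 and 48.5 in niche metastatic libraries. The normal groups were apart, whereas in metastatic marrow the lowest niche library lay under all 3 general ones. The log2 fold change was 2.59 ± 0.49 in normal marrow (adjusted p = 0.00549 by edgeR) and 0.60 ± 0.46 in metastatic marrow (adjusted p = 0.972 by edgeR). Under limma-voom the call in normal marrow was lost (adjusted p = 0.0796).

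Acp2 encodes a lysosomal acid phosphatase anchored in the membrane (chr2:91202885-91214098, plus strand). It was at 32.3, 32.8 and 12.2 CPM in general normal, 22.8, 56.9 and 22.9 in general metastatic, 202, 152 and 182 in niche normal and 197, 58.2 and 74.9 in niche metastatic libraries. Every niche library was above every general library, by the narrow margin of 58.2 against 56.9 CPM at the closest pair. In normal marrow the log2 fold change was 2.80 ± 0.59 (adjusted p = 0.0125 by edgeR), and in metastatic marrow 1.68 ± 0.57 (adjusted p = 0.361 by edgeR). The call in normal marrow was lost without general normal library 3 (adjusted p = 0.0730) and under limma-voom (adjusted p = 0.0660). Ddb2, which overlaps Acp2 on the opposite strand, was at 0.0812 to 78.7 CPM. How the counting treated strand is not given in the sources used here, so reads of the overlapping stretch cannot be told apart.

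Lipa encodes lysosomal acid lipase, which frees cholesterol and fatty acids from engulfed lipoproteins (chr19:34492318-34527474, minus strand). The libraries read 69.3, 97.4 and 128 CPM in general normal, 35.2, 66.8 and 39.5 in general metastatic, 322, 242 and 224 in niche normal and 253, 71.8 and 90.2 in niche metastatic marrow. Within each marrow state the populations did not overlap, but across states they did, since niche metastatic libraries 2 and 3 lay under the highest general normal one. The log2 fold change was 1.42 ± 0.46 in normal marrow (adjusted p = 0.126 by edgeR), 1.55 ± 0.46 in metastatic marrow (adjusted p = 0.207 by edgeR) and 1.49 ± 0.32 over both (adjusted p = 0.0103 by edgeR).

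**Figure D2:**
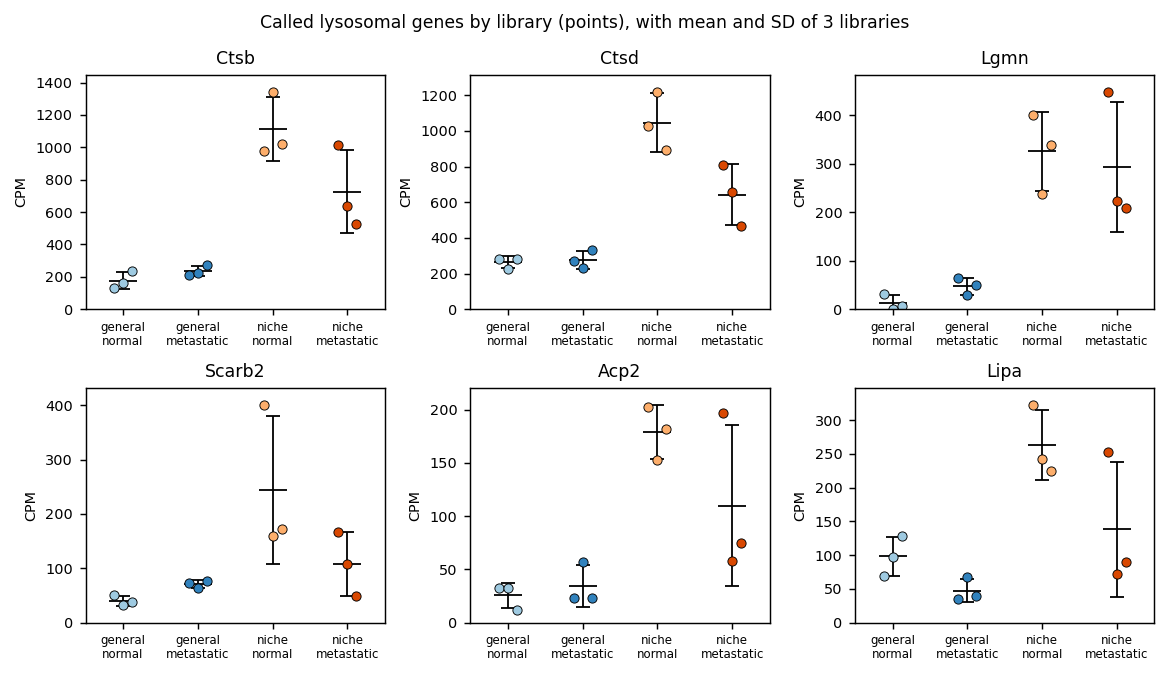
CPM (y axis, linear from 0) in each of the 12 libraries (points) of the 6 lysosomal genes called between niche and general macrophages, with the mean and SD of 3 libraries per group (x axis). Niche normal libraries are above both general groups in all 6 panels, and niche metastatic library 1 is the highest of its group in each.

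These 6 genes, which were chosen by their difference and so support nothing further, took 10.03% to 11.6% of the lysosomal counts in general normal and 12.7% to 14.5% in general metastatic libraries. In niche normal libraries they took 38.0% to 41.2% and in niche metastatic libraries 26.6% to 35.2%. The other 42 genes summed to 4627 to 5375 CPM in general normal, 4523 to 4673 in general metastatic, 4574 to 5433 in niche normal and 3838 to 5320 in niche metastatic libraries, so these sums overlapped in normal marrow and in metastatic marrow. In niche metastatic marrow the macrophage markers were also highest in library 1, and the part of that library's makeup in these levels was not tested. The plot of the called genes by library shows the same library at the top of its group for each gene.

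The abundant membrane proteins that line the lysosome gave no call between the populations in edgeR, apart from Scarb2. Lamp1, one of the main structural glycoproteins of the membrane, was at 165 to 279 CPM in general normal, 182 to 263 in general metastatic, 233 to 307 in niche normal and 228 to 321 in niche metastatic libraries. All 4 groups overlapped, and its niche over general log2 fold change was 0.24 ± 0.28 in each marrow state. Lamp2, its relative that also serves chaperone-mediated autophagy, was at 969.9, 967 and 1085 CPM in general normal, 1198, 1263 and 664 in general metastatic, 696, 842 and 782 in niche normal and 653, 695 and 761 in niche metastatic libraries. Lamp2 was lower in every niche normal than in every general normal library, with a log2 fold change of -0.38 ± 0.23 (adjusted p = 0.381 by edgeR). In metastatic marrow, where the groups overlapped, it was -0.57 ± 0.23 (unadjusted p = 0.0252, adjusted p = 0.523 by edgeR). Laptm5 was at 469.7 to 594 CPM in general normal and 479 to 615 CPM in niche normal libraries, which overlapped. Cd68, the macrosialin used to stain macrophages, was at 42.9 to 67.3 CPM in general normal and 49.1 to 139 CPM in niche normal libraries. It had group means of 54.4 ± 12.3, 25.7 ± 25.1, 80.1 ± 51.2 and 69.3 ± 49.5 CPM (SD, n = 3) in general normal, general metastatic, niche normal and niche metastatic libraries and so spread widely within groups. Npc1, the cholesterol exporter of the lysosomal membrane, Mcoln1, its calcium channel, Cln3 and the tetraspanin Cd63 had group means of 13.2 to 54.4 CPM and were not called.

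Psap was the most abundant lysosomal gene by CPM per kilobase in both general groups, at 494 in normal and 351 in metastatic marrow. In niche normal libraries Ctsd came first, at 445 CPM per kilobase against 406 for Psap, and in niche metastatic libraries the pair lay at 273 and 274. Its libraries were at 1577, 1150.3 and 1343 CPM in general normal, 888, 873 and 1125 in general metastatic, 1431, 899 and 1015 in niche normal and 1061, 584 and 614 in niche metastatic marrow. The populations overlapped in both marrow states, with niche over general log2 fold changes of -0.28 ± 0.25 and -0.35 ± 0.25. Grn, the progranulin precursor, had group means of 72.1 ± 36.9, 76.8 ± 35.3, 107 ± 60.6 and 118 ± 30.9 CPM (SD, n = 3) in the same order of groups. Ppt1, which removes palmitate from proteins, and Npc2, the soluble cholesterol carrier that hands its cargo to Npc1, had group means of 46.8 to 97.4 CPM and were not called. Asah1, acid ceramidase, was at 27.1, 24.9 and 128 CPM in general normal, 105, 78.0 and 118 in general metastatic, 135, 153 and 229 in niche normal and 83.9, 13.9 and 50.9 in niche metastatic libraries. Its general and niche normal libraries did not overlap (log2 fold change 1.52 ± 0.64, adjusted p = 0.233 by edgeR).

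The proton pump genes lay on the other side of 0. Atp6v1a, the catalytic subunit that hydrolyses ATP, was at 321, 244 and 274 CPM in general normal, 366, 341 and 279 in general metastatic, 107, 122 and 209 in niche normal and 251, 248 and 181 in niche metastatic libraries. Within each marrow state every niche library was under every general library. The log2 fold change was -0.94 ± 0.30 in normal marrow (adjusted p = 0.119 by edgeR) and -0.54 ± 0.30 in metastatic marrow (adjusted p = 0.685 by edgeR), so neither passed. DESeq2 called Atp6v1a in normal marrow, as did edgeR when genes had to have at least 10 counts in every library. With both states averaged, edgeR gave an adjusted p of 0.0533, and DESeq2 and limma-voom called it lower. Atp6v0d1, a subunit of the membrane sector, and Atp6ap1, an accessory subunit that helps assembly, were not called and had log2 fold changes from -0.81 to -0.29 in the 2 marrow states.

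**Figure D3:**
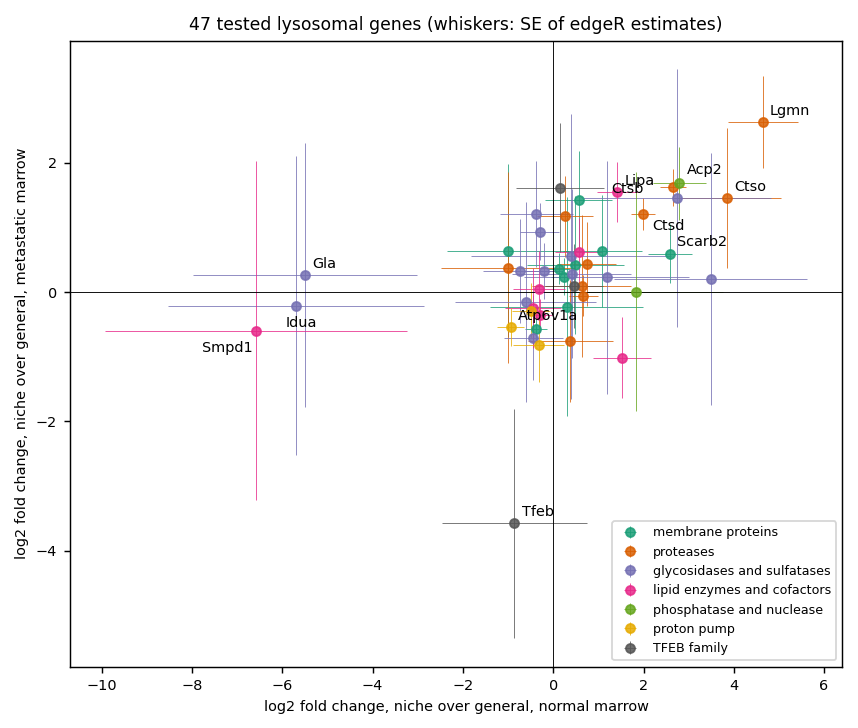
Log2 fold changes of niche over general macrophages in normal marrow (x axis) and metastatic marrow (y axis) for the 47 tested lysosomal genes, coloured by class, with whiskers of 1 SE. The called genes lie to the upper right, most others nearer to 0, and genes read at few counts in some libraries carry the longest whiskers. The axes use different libraries, so no control sample is shared.

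By the number of genes placed apart, 9 lysosomal genes were higher in every niche normal than in every general normal library (10% of all genes were) and 2 were lower (8.78% of all genes). The 9 were Scarb2, Ctsb, Ctsd, Ctso, Lgmn, Glb1, Lipa, Asah1 and Acp2, and the 2 were Lamp2 and Atp6v1a. In metastatic marrow 6 were higher (8.34% of all genes) and 2 lower (8.85% of all genes). These 6 were Ctsb, Ctsd, Lgmn, Hexa, Lipa and Acp2, and the 2 were Atp6v1a and Tfeb. In all 6 niche against all 6 general libraries, Ctsb, Ctsd, Lgmn and Acp2 were higher without overlap (1.97% of all genes) and none was lower (1.27% of all genes).

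The TFEB family was read at low levels and gave no call in any of the 3 tools. Tfeb, whose protein moves to the nucleus when lysosomes are stressed or nutrients are short, was at 41.2, 19.6 and 25.1 CPM in general normal, 38.6, 39.8 and 41.0 in general metastatic, 36.7, 10.5 and 0.201 in niche normal and 0.0505, 0.0874 and 9.83 in niche metastatic libraries. The general metastatic libraries were close together and above all 3 niche metastatic ones, of which 2 held 3 counts or fewer. The niche over general log2 fold change in metastatic marrow was -3.58 ± 1.77 (adjusted p = 0.606 by edgeR). Its niche mean rests on library 3, with 266 counts against 1 and 2 in libraries 1 and 2. Tfe3, its close relative, was at 24.5, 50.01 and 48.9 CPM in general normal, 36.3, 61.2 and 44.1 in general metastatic, 49.7, 60.4 and 59.4 in niche normal and 77.5, 29.2 and 44.8 in niche metastatic libraries, and all groups overlapped. Mitf, the family member needed for osteoclasts and pigment cells, was at 20.1, 32.2 and 32.5 CPM in general normal, 30.8, 9.72 and 12.4 in general metastatic, 4.46, 63.9 and 25.3 in niche normal and 79.8, 56.5 and 25.9 in niche metastatic libraries. Its niche normal libraries spread across the whole range of the general normal ones. RNA levels do not show where the proteins of the family are in the cell. Among the genes called with both states averaged, 2 of the 5 with a promoter window held CACGTG, and among the other lysosomal genes 13 of 38.

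**Figure D4:**
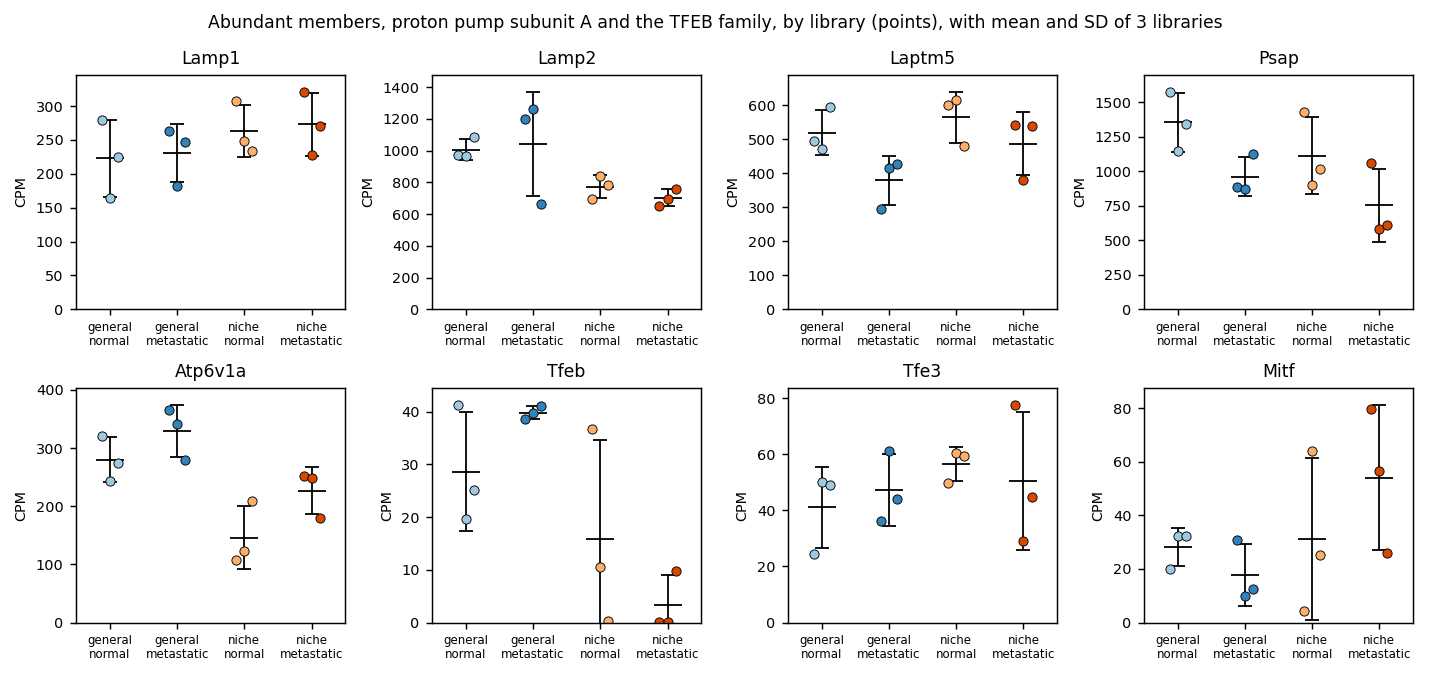
CPM (y axis, linear from 0) by library (points) with the mean and SD of 3 libraries for abundant lysosomal genes, the pump subunit Atp6v1a and the 3 TFEB family genes, none of which was called by edgeR. Lamp1 overlaps in all groups, Atp6v1a is lower in niche than in general libraries of the same marrow state, and Tfeb is at 0.0874 CPM or less in 2 niche metastatic libraries.

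The glycosidases and sulfatases, which take sugars and sulfate groups off glycans and glycolipids, held several genes for which libraries of the same group disagreed. The count was made after the values were seen, of groups in which 1 library had 3 counts or fewer and another 100 or more. Such a split occurred in 7 of 13 glycosidases and sulfatases (Gaa, Gla, Glb1, Gusb, Naglu, Idua and Sgsh) and in none of the 11 proteases and 3 pump genes. Some proteases missed that limit by a few counts, such as Ctsa with 10 and 1433 counts in niche metastatic, Ctsl with 8 and 404 in niche normal and Ctso with 6 and 230 in general normal libraries. Over the 47 tested lysosomal genes it occurred in 11 (23.4%), and over all tested genes in 46.8%, so the share among glycosidases and sulfatases is near that of all genes. The remaining 4 were Cd63, Smpd1, Dnase2a and Tfeb. The median SD of log2(CPM + 0.5) within groups was 0.95 for the lysosomal genes and 1.62 for all tested genes.

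Glb1, lysosomal beta-galactosidase, read 0.206, 0.237 and 8.24 CPM in general normal, 2.99, 0.0452 and 9.88 in general metastatic, 30.3, 31.6 and 35.6 in niche normal and 7.07, 0.175 and 7.65 in niche metastatic libraries. The niche normal libraries agreed closely and lay above all others, yet edgeR did not call the gene in normal marrow (log2 fold change 3.48 ± 2.14, adjusted p = 0.385). The general normal mean in that fold change rests on library 3, with 165 counts against 3 and 4 in libraries 1 and 2. Gla, alpha-galactosidase A, had 0, 8 and 2 counts in the niche normal libraries and was at 5.36, 0.237 and 18.03 CPM in general normal ones. Idua, alpha-L-iduronidase, had 1, 4 and 1 counts and Smpd1, acid sphingomyelinase of the lipid class, 1, 0 and 3 counts in niche normal libraries. At this depth those genes were at or near the limit of 3 counts there, and no fold is given. Man2b1, lysosomal alpha-mannosidase and the gene of the class with the highest mean CPM, though Neu1 and Ids had higher levels per kilobase, was at 261, 178 and 139 CPM in general normal, 112, 103 and 140.2 in general metastatic, 176, 214 and 79.2 in niche normal and 400.2, 139.8 and 140.1 in niche metastatic libraries. Its groups overlapped between populations in normal marrow, and niche metastatic library 1 stood far above the other two. Hexa, the alpha subunit of beta-hexosaminidase, had group means of 37.5 ± 7.25, 20.6 ± 7.15, 29.0 ± 10.7 and 47.8 ± 13.7 CPM (SD, n = 3) in general normal, general metastatic, niche normal and niche metastatic libraries. Ids, iduronate-2-sulfatase, and Galns, which removes sulfate from keratan and chondroitin sulfate, had group means from 40.7 to 152 CPM, and neither was called between the populations. Neu1, a sialidase, was at 91.8, 83.6 and 0.703 CPM in niche normal libraries and at 80.8 to 144 CPM in all other libraries.

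**Figure D5:**
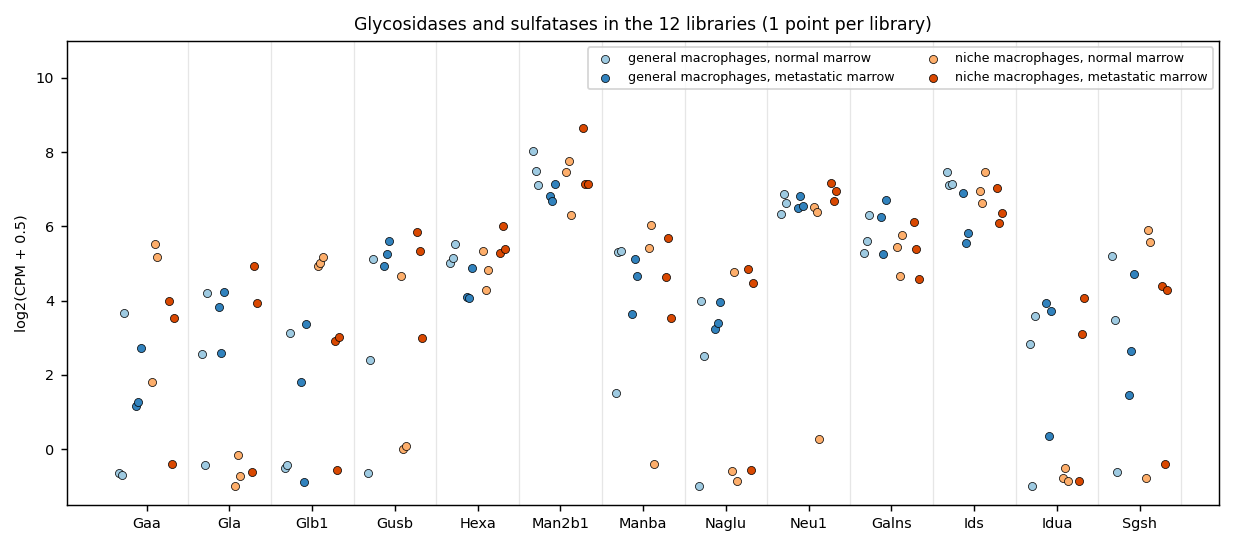
Log2(CPM + 0.5) (y axis) of the 13 glycosidases and sulfatases (x axis) in each of the 12 libraries (points), coloured by group. The enzymes with a split, such as Naglu and Sgsh, have libraries near the bottom of the axis beside others of the same group far above, whereas Hexa, Man2b1, Galns and Ids do not.

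The comparison of metastatic with normal marrow asked whether the same sort of macrophage differed when the marrow carried tumour cells. In general macrophages none of the 47 genes was called, and 0.0155% of all genes were. At an unadjusted p under 0.05 there were 3 lysosomal genes (5.12% of all genes), and DESeq2 and limma-voom called 0, with 1.09% and 0.179% of all genes. The median log2 fold change was 0.05 over the lysosomal genes, with 25 of 47 above 0, and -0.01 over all genes. The 3 with the smallest p were Lgmn, Ids and Lipa, none of which passed (adjusted p = 0.944 for each by edgeR). Lgmn had a log2 fold change of 1.86 ± 0.69, with its general normal libraries at 1.01 to 30.5 CPM and its general metastatic libraries at 28.9 to 63.6 CPM, which overlapped. Over the alternatives that fold change ran from 1.31 to 3.45. Ids was at 178, 139 and 140.0 CPM in general normal and 119, 46.5 and 56.2 CPM in general metastatic libraries, without overlap (log2 fold change -1.04 ± 0.43). Its niche libraries were at 124, 97.7 and 175 CPM in normal and 129.6, 67.6 and 80.9 CPM in metastatic marrow. Lipa was at 69.3 to 128 CPM and 35.2 to 66.8 CPM in the same groups, also without overlap (log2 fold change -1.06 ± 0.45).

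Across general macrophages 7 lysosomal genes were lower in all 3 metastatic than in all 3 normal libraries (5.64% of all genes were) and 2 were higher (7.27% of all genes). The 7 were Mcoln1, Laptm5, Hexa, Ids, Lipa, Psap and Npc2, and the 2 were Scarb2 and Atp6v0d1. Psap, at 1150.3 to 1577 CPM in normal and 873 to 1125 CPM in metastatic libraries, had a log2 fold change of -0.50 ± 0.25, and Laptm5 one of -0.45 ± 0.24. Their adjusted p values were 0.944 and 0.946.

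In niche macrophages no lysosomal gene was called between metastatic and normal marrow either, and 0.00776% of all genes were. At an unadjusted p under 0.05 there were 8 of 47 (12.7% of all genes), limma-voom called 0 (0.0854% of all genes) and DESeq2 called 2 (7.41%). The 2 were Gla and Idua, which had 8 counts or fewer in each niche normal library and 1 niche metastatic library at 0.151 and 0.0505 CPM. The median log2 fold change was -0.21 over the lysosomal genes, with 19 of 47 above 0, and -0.17 over all genes. With library totals alone as scaling those medians were 0.05 and 0.06, so their direction depends on the scaling. The 3 genes with the smallest p were Ctsd, Asah1 and Scarb2 (adjusted p = 0.381 for each by edgeR). Ctsd was at 894 to 1219 CPM in niche normal and 464 to 807 CPM in niche metastatic libraries, without overlap (log2 fold change -0.70 ± 0.25). Asah1 was at 135, 153 and 229 CPM and at 83.9, 13.9 and 50.9 CPM in the same groups, also without overlap (log2 fold change -1.80 ± 0.64). Scarb2 was at 159 to 400.4 CPM and 48.5 to 166 CPM, which overlapped (log2 fold change -1.18 ± 0.47). Ctso and Glb1 were also lower in every niche metastatic than in every niche normal library, which makes 4 genes lower (7.11% of all genes), and Neu1 alone was higher (5.63% of all genes). The macrophage markers summed to 4015 to 5115 CPM in the niche normal and 1636 to 3186 CPM in the niche metastatic libraries, and their part in these values was not tested.

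Whether the effect of metastasis differed between the sorts was tested as the difference of the 2 log2 fold changes. No lysosomal gene passed in edgeR, and 0% of all genes were called. At an unadjusted p under 0.05 there were 5 lysosomal genes (7.89% of all genes), and DESeq2 (3.18% of all genes) and limma-voom (0%) called 0 of the 47. Scarb2 had the smallest p, with a difference of -1.99 ± 0.66 (adjusted p = 0.452 by edgeR). It read 33.2 to 51.0 CPM in general normal and 63.6 to 77.5 CPM in general metastatic libraries, and 159 to 400.4 CPM and 48.5 to 166 CPM in the niche sort. The other 4 were Asah1, Ctsb, Ctsd and Lgmn, with differences of -2.54 ± 0.90, -1.03 ± 0.39, -0.78 ± 0.35 and -2.01 ± 0.96. So the larger niche over general values of these genes in normal than in metastatic marrow did not pass a test of the difference. With both populations averaged, metastatic against normal marrow gave no lysosomal gene in edgeR (0.0543% of all genes were called, 0.0466% as lower) or limma-voom, and 5 of 47 at an unadjusted p under 0.05 (10.5% of all genes). DESeq2 called Psap there (4.59% of all genes).

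Genes of the lysosome outside the 48 were read from 6 further lists with 123 tested genes. In niche macrophages from normal marrow 1 was called higher and 1 lower (2.47% of all genes were called), with 13 higher and 5 lower at an unadjusted p under 0.05 (19% of all genes). In metastatic marrow edgeR called none (0.831% of all genes), with 3 higher and 2 lower at an unadjusted p under 0.05 (8.6% of all genes). With both states averaged 3 were called higher and 1 lower (4.21% of all genes). Tmem106b, a lysosomal membrane protein, was at 25.5, 62.4 and 43.2 CPM in general normal and 145, 238 and 130.4 CPM in niche normal libraries (log2 fold change 1.97 ± 0.47, adjusted p = 0.0296 by edgeR). Its general metastatic libraries at 80.1 to 93.9 CPM and niche metastatic libraries at 45.6 to 117 CPM overlapped. Ifi30, the thiol reductase that unfolds antigens for presentation, was called lower (adjusted p = 0.0433 by edgeR), at 24.6, 24.1 and 53.3 CPM in general normal libraries and 0.243, 0.249 and 0.1 CPM in niche normal ones, near the level of 3 counts. With both states averaged the calls included Pla2g15 and Laptm4b as higher and Ifi30 as lower. Laptm4b, a relative of Laptm5, was at 0, 0.237 and 0.2 CPM in general normal, 14.6, 11.7 and 1.39 in general metastatic, 72.3, 7.21 and 9.64 in niche normal and 38.2, 12.8 and 22.0 in niche metastatic libraries (adjusted p = 0.0445 by edgeR). The general normal libraries were near the level of 3 counts, so no fold is given.

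By list, 19 of 23 membrane proteins and transporters had a log2 fold change above 0 in normal marrow, with a median of 1.09, and 12 of 23 in metastatic marrow, with a median of 0.07. The 15 further pump subunits had medians of 0.002 and 0.11 with no call, beside the lower values of Atp6v1a. The 23 tested hydrolases and activators had medians of 0.22 and -0.14, the 19 genes of enzyme delivery 0.22 and -0.15, the 19 regulators of TFEB 0.95 and 0.12, and the 24 autophagy genes 0.42 and 0.20. Over all tested genes the medians were 0.19 and 0.04. Pla2g15, a lysosomal phospholipase, was at 8.45 to 58.1 CPM in general and 58.8 to 217 CPM in niche libraries, without overlap (log2 fold change over both states 1.90 ± 0.43, adjusted p = 0.0142 by edgeR).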

How the data were processed

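The authors deposited 1 table of expected counts for 12 libraries, not normalized. The unit was read from the values, 73.9% of which were whole. Partek, STAR 2.7.3a, DESeq2 1.40.2, R 4.3.1 and mm10 are named in the submitters' processing notes, without their roles. The counter, the annotation and the strand setting are not given in the sources used here. Columns were matched to samples by name. The niche normal columns carry other replicate numbers than the titles and are called A, B and C.

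Counts were rounded to whole numbers. Genes were filtered by filterByExpr, scaled by TMM and tested by edgeR 4.0.16 (R 4.3.3) with a quasi-likelihood F-test over all 12 libraries and 4 group means, with Benjamini-Hochberg adjustment over 12882 genes and calls at an adjusted p under 0.05. The common biological coefficient of variation was 1.30. Values in CPM use the library total over the tested genes multiplied by its TMM factor (0.905 to 1.26). DESeq2 1.42.0, limma 3.58.1 (voom with sample quality weights), other scalings, filters and leaving out each library were alternatives. All 48 genes were matched to GENCODE M21 for mm10 coordinates and exon lengths, and promoter sequence is from RefSeq.

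The 48 genes and all lists were chosen with earlier results of these data known. Values in every library are given for the called genes of each of the 4 pairwise comparisons (at most 8), the 3 with the smallest p where none was called, the gene with the highest mean CPM of each class and the TFEB family. Other genes of the 48 named with their libraries, such as Lamp1, Glb1, Gla, Idua and Smpd1, were chosen after their values were seen. No pair of libraries in a group agreed within sampling noise (chi-square per degree of freedom 139 to 411). Replicate numbers were not used as pairs, since nothing ties libraries of a number to 1 mouse, and 9 pairs with the same number had correlations of deviations of -0.00462 to 0.0330. Pairs with different numbers had correlations of -0.0338 to 0.0204. One further gene of the lysosome lists is not reported here.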

Additional observations from a re-analysis of the deposited data

How the results depend on the processing

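Each count of called genes was recomputed under 19 to 22 alternatives. For niche over general macrophages in normal marrow the count of 5 became 10 under DESeq2 and 2 (Ctsb and Ctsd) under limma-voom, and 4 to 6 when 1 library was left out. Of all genes DESeq2 called 14.2% there and limma-voom 1.44%. In metastatic marrow the count of 2 became 4 under DESeq2, 3 under limma-voom, 3 with no filter on low counts and 1 to 3 when 1 library was left out, being 1 without general metastatic library 1 or 2 or niche metastatic library 1 or 2. With both marrow states averaged it went from 6 to between 5 and 8 when 1 library was left out. For metastatic against normal marrow DESeq2 gave 2 genes in niche macrophages and 1 with both populations averaged, and 0 remained 0 in general macrophages and for the difference between sorts under all alternatives run, with leave-one-out counts of 0 throughout. With the replicate number as a block over the 9 libraries that share numbers, 3 genes were called for niche over general in metastatic marrow, against 2 in the same libraries without the block, and 0 for metastatic over normal in general macrophages. Of the 18 checks of whether a library deviates most like its own number, 9 held. Each check took the best of 3 numbers, so some would hold without any tie. The comparison without the block was added after seeing the data. None of the 19 named fold changes reversed. Of all calls for metastatic over normal marrow with both populations averaged, 14.3% of 7 were higher, and 25.0% of 4 with library totals alone. In niche macrophages the single call was lower, and with haemoglobin, immunoglobulin, mitochondrial and small RNA genes removed 50% of 2 were higher. Depth sets the limit of 3 counts, at which Smpd1 lay in all niche normal libraries. Libraries of like depth also disagreed, as niche normal B and C, with 20187500 and 20492640 counts, did for Naglu with 538 and 1 counts, and the cause was not tested.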
